A study of Mus musculus with 7 samples.

Results

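Pf4, Itga2b, Itgb3, Gp9, Gp1bb, Gp6, Vwf, Selp and Nfe2 encode platelet proteins and receptors, and a transcription factor, that mark platelet-primed stem cells and megakaryocyte progenitors. These 9 genes were taken by symbol, with earlier results of these data known, from the 24421 gene symbols measured by RNA-seq in mouse LSK cells. LSK (Lin-Sca1+Kit+) cells are a sorted fraction of marrow in which the blood-forming stem cells and early progenitors are found. The study compared 4 Ddx41+/+ samples (replicates 1 to 4) with 3 Ddx41+/- samples (replicates 6 to 8), each with RNA from about 20K sorted LSK cells of 1 mouse. Every mouse was a lethally irradiated BoyJ recipient of 1M donor marrow cells, harvested 8 weeks after transplant. Donors of both genotypes carried Rosa-CreERT2, a tamoxifen-activated recombinase that is not restricted to blood cells, and both groups of recipients received tamoxifen (1 mg a day, in 2 rounds of 5 days). Donors of the Ddx41+/- samples also carried 1 floxed Ddx41 allele. The labels give no age of the mice and name no donor marker in the sort, so remaining recipient LSK cells, which carry no floxed allele, cannot be told apart from donor cells.

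Megakaryocytes are the large marrow cells that shed platelets. Their genes for adhesion receptors and granule proteins are switched on under factors such as GATA1, GATA2, FLI1, RUNX1 and NF-E2, and a share of hematopoietic stem cells already transcribes some of them, such as Vwf, Itga2b and Selp, before lineage commitment. In bulk RNA a lower value can come from fewer cells that express a gene or from less RNA per cell, and these cannot be told apart.

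Promoter sequences are shown for the 3 genes with the smallest p in the genotype comparison, so that their regulatory letters can be set beside their values. RefSeq promoters (GRCm38.p6) were matched by symbol for 6 of the 9 genes, all except Itgb3, Vwf and Nfe2. Each sequence is the 250 bases before the RefSeq transcription start, written 5′ to 3′ on the strand of the gene. Capitals mark AGGAAG or its reverse complement CTTCCT, a core motif of ETS factors, the family of FLI1. The regions are chr5:90772185-90772434 (plus strand) for Pf4, chr11:102469884-102470133 (minus strand) for Itga2b and chr16:18622404-18622653 (minus strand) for Gp1bb. The Itga2b start is at position 102469883, and a further GENCODE transcript starts upstream of it, so that 239 of the 250 bases printed lie inside the annotated gene and 180 in an exon of that transcript.
Pf4: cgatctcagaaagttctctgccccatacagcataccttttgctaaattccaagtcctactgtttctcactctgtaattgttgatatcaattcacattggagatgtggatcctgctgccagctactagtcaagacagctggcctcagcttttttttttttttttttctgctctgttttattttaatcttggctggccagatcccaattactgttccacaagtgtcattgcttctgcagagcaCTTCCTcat
Itga2b: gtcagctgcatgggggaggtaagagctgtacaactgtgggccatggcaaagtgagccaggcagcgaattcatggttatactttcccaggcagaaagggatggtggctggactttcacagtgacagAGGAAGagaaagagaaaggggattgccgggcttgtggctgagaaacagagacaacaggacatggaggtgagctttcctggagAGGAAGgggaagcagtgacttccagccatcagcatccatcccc
Gp1bb: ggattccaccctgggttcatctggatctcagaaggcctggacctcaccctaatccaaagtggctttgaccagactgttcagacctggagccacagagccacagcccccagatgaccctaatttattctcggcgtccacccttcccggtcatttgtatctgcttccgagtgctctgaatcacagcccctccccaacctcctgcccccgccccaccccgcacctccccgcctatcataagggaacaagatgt
The Pf4 sequence held 1 ETS core, on the reverse strand 9 bases before the start, and the Itga2b sequence held 2, at 125 and 43 bases. Gp9 and Selp each held 1, at 16 and 64 bases, both on the reverse strand. The RefSeq start of Gp9, at position 87778070, was not found in a GENCODE transcript. It lies just before the GENCODE start of the gene at 87778072. The GATA core AGATAA was matched once, in Gp6, 144 bases before the start, and the NF-E2 core TGAGTCA in none of the 6. Gp1bb had no match to any of these 3 exact strings of letters. Variant forms of the motifs were not searched, so a lack of matches does not show that a motif is absent. Among 32851 RefSeq promoters searched on both strands in the same window, 29.5% held the ETS core, 9.99% the GATA core and 4.46% the NF-E2 core. These are matches of letters and not measured binding.

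Total counts were 32234499 to 43751290 per sample, and the 9 genes held 0.0468% to 0.0628% of them. Ddx41, the targeted helicase gene, was lower in every Ddx41+/- sample (64.4 to 69.5 CPM, counts per 1M counts of scaled library size) than in every Ddx41+/+ sample (92.8 to 106.6 CPM; edgeR adjusted p = 0.0052). Values by sample are given in the order of replicates 1 to 4 for Ddx41+/+ and 6 to 8 for Ddx41+/-. Of the sort markers, Kit was at 427.0 to 505.0 CPM in Ddx41+/+ and 455.4 to 490.1 CPM in Ddx41+/- samples. Ly6a (Sca-1) was at 17.7 to 23.6 CPM in Ddx41+/+ and 18.5, 30.5 and 13.3 CPM in Ddx41+/- samples. No other sorted cells are among the samples, so LSK identity was not tested with these values. Of the 7 LSK markers listed, 6 had a log2 fold change below 0 (median -0.16). At an unadjusted p under 0.05 there were 4 of them (Cd34, Flt3, Slamf1 and Procr), with 2 without overlap (Slamf1 and Procr) and 0 called. Over all 13340 genes tested, 4.93% were lower at that level and 5.21% did not overlap in the lower direction. A library numbered 5 of the Ddx41+/- group had been removed by the authors from the deposited counts, for a reason not stated, and is not analysed here.

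Of the 9 genes, 8 passed the filter on low counts, all except Gp6. Of the 8 tested, 1 (Pf4) was lower in Ddx41+/- with a Benjamini-Hochberg adjusted p under 0.05 in edgeR's quasi-likelihood test, and 0 were higher. Over all 13340 genes tested, the call was made for 0.217% in either direction and for 0.0975% in the lower direction. All 8 fitted log2 fold changes were below 0, from -0.61 (Gp1bb) to -0.07 (Itgb3), with a median of -0.19, against 51.2% of all genes below 0 and a median over all genes of -0.0048. At an unadjusted p under 0.05 there were 4 lower genes (Pf4, Itga2b, Gp1bb and Nfe2), where 4.93% of all genes were lower at that level and 10.6% differed in either direction. The fold changes of Itgb3 and Gp9 lay between the 25th and 75th percentiles of all genes (-0.11 and 0.10), while those of Pf4 and Gp1bb lay below the 5th percentile of -0.45.

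**Figure D1:**
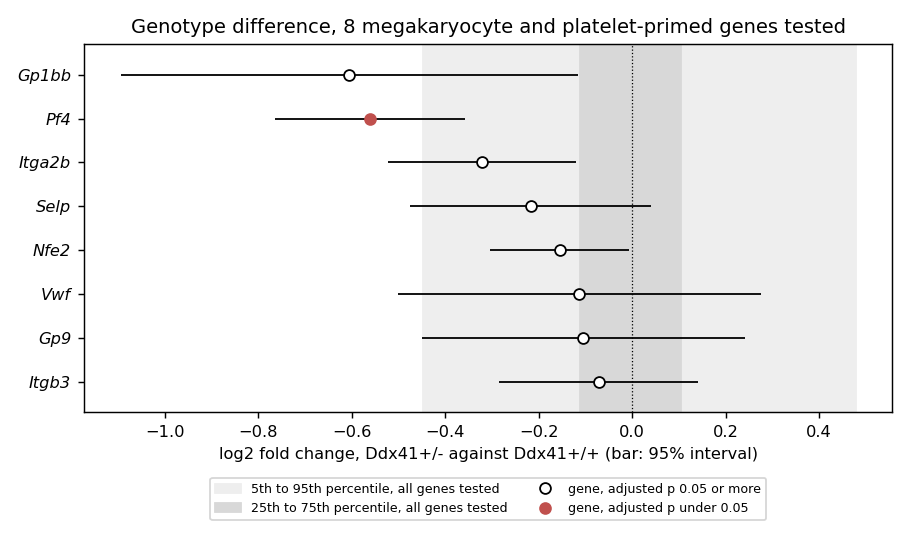
Fitted log2 fold changes (Ddx41+/- against Ddx41+/+, x axis) of the 8 genes tested, with 95% intervals as bars and grey bands for the percentiles of all 13340 genes. Pf4, the filled point at -0.56, is the only one with an adjusted p under 0.05. The intervals of Selp, Vwf, Gp9 and Itgb3 include 0.

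Pf4 encodes platelet factor 4, a chemokine of the platelet alpha granule. It lies on chromosome 5 (90772435 to 90773383, plus strand, GRCm38). Pf4 was at 50.3, 49.6, 53.0 and 41.7 CPM in Ddx41+/+ and at 30.0, 35.3 and 33.6 CPM in Ddx41+/- samples. Every Ddx41+/- sample was below the lowest Ddx41+/+ sample, and replicate 4 was the nearest Ddx41+/+ sample to them. The Ddx41+/+ mean was 48.6 ± 4.88 CPM (SD, n = 4). The Ddx41+/- mean was 33.0 ± 2.68 CPM (SD, n = 3), which is 67.8% of it. The log2 fold change was -0.56 (SE 0.096, 95% interval -0.76 to -0.36) with an edgeR adjusted p of 0.0283. By exact permutation of the CPM values (two-sided), p was 0.0571, where 0.0286 is the smallest p that 4 against 3 samples allow. The fold change stayed between -0.63 and -0.50 when single samples were left out. The adjusted p (edgeR) was then 0.0992 without Ddx41+/+ replicate 2, 0.0640 without Ddx41+/+ replicate 3, 0.0803 without Ddx41+/- replicate 6 and 0.0924 without Ddx41+/- replicate 8, so the call was lost in these 4 fits.

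Itga2b and Itgb3 encode the alpha IIb (CD41) and beta 3 subunits that pair into the fibrinogen receptor of platelets. Both lie on chromosome 11 of GRCm38, Itga2b at 102453297 to 102470122 (minus strand) and Itgb3 at 104608000 to 104670476 (plus strand). Itga2b was at 139.6, 112.7, 105.7 and 125.1 CPM in Ddx41+/+ and at 89.6, 92.2 and 108.2 CPM in Ddx41+/- samples. The groups overlapped only through Ddx41+/- replicate 8, which was above Ddx41+/+ replicate 3. The log2 fold change of Itga2b was -0.32 (SE 0.095, 95% interval -0.52 to -0.12). Its edgeR p was 0.0041 before and 0.242 after adjustment, so it did not pass. Itgb3, the partner subunit, was at 30.9, 27.5, 28.4 and 27.1 CPM in Ddx41+/+ and at 24.4, 30.6 and 26.3 CPM in Ddx41+/- samples. Its groups were interleaved, with Ddx41+/- replicate 7 above 3 of the 4 Ddx41+/+ samples. Itgb3 had a log2 fold change of -0.07 (SE 0.10, 95% interval -0.28 to 0.14), which was -0.0026 without Ddx41+/- replicate 6 and -0.17 without replicate 7. The difference between the subunits in their response was not tested.

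Gp1bb and Gp9 encode subunits of the GPIb-IX-V complex, the platelet receptor for von Willebrand factor. Gp1bb lies on chromosome 16 (18620317 to 18622403, minus strand) and Gp9 on chromosome 6 (87778072 to 87779768, plus strand). Gp1bb was at 4.69, 5.54, 3.85 and 4.12 CPM in Ddx41+/+ and at 3.43, 2.40 and 3.13 CPM in Ddx41+/- samples, the lowest from 81 counts. All Ddx41+/- values were below all Ddx41+/+ values, as for Pf4. These were the 2 genes without overlap, and over all genes tested 10.1% did not overlap, 5.21% in the lower direction. Gp1bb had a log2 fold change of -0.61 (SE 0.23, 95% interval -1.10 to -0.11), with an edgeR p of 0.0187 before and 0.358 after adjustment.

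The value of Gp1bb carries a doubt about read assignment, because its annotated exons overlap those of Sept5, a septin gene on the same strand. Sept5 was at 4.35, 3.65, 4.77 and 4.14 CPM in Ddx41+/+ and at 6.35, 8.39 and 6.27 CPM in Ddx41+/- samples, the opposite direction to Gp1bb. Its log2 fold change was 0.73 (SE 0.19, edgeR adjusted p = 0.167). With the counts of both genes summed, a choice made after these values were seen, the pair was at 9.04, 9.19, 8.62 and 8.26 CPM in Ddx41+/+ and at 9.77, 10.8 and 9.40 CPM in Ddx41+/- samples. The summed values were higher in every Ddx41+/- sample, and the log2 fold change turned to 0.19 (SE 0.14, edgeR adjusted p = 0.693). Which of the shared reads belong to which gene was not tested.

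Gp9 was at 9.38, 9.21, 8.59 and 8.34 CPM in Ddx41+/+ and at 6.70, 9.76 and 8.36 CPM in Ddx41+/- samples. Both the lowest and the highest of the 7 values were Ddx41+/- samples, replicates 6 and 7. The log2 fold change of Gp9 was -0.10 (SE 0.16, 95% interval -0.45 to 0.24), and it turned to 0.026 without Ddx41+/- replicate 6 and was -0.24 without replicate 7.

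Gp6 encodes glycoprotein VI, the platelet receptor for collagen (chromosome 7, 4363965 to 4397744, minus strand). It had 0 counts in every sample. With 3 counts as the limit that a count of 0 allows, for counting error only, the limit was 0.0676 to 0.0947 CPM per sample. The globin genes Hba-a1, Hba-a2, Hbb-bs and Hbb-bt were also at 0 counts in all samples, so a 0 in these counts is not by itself a measured absence of RNA, and no fold change is given. Fcer1g, the signalling partner chain of glycoprotein VI that other blood cells also use, was detected in both genotypes, at 54.4 ± 5.30 CPM (SD, n = 4) without and 58.5 ± 7.89 CPM (SD, n = 3) with the deleted allele.

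**Figure D2:**
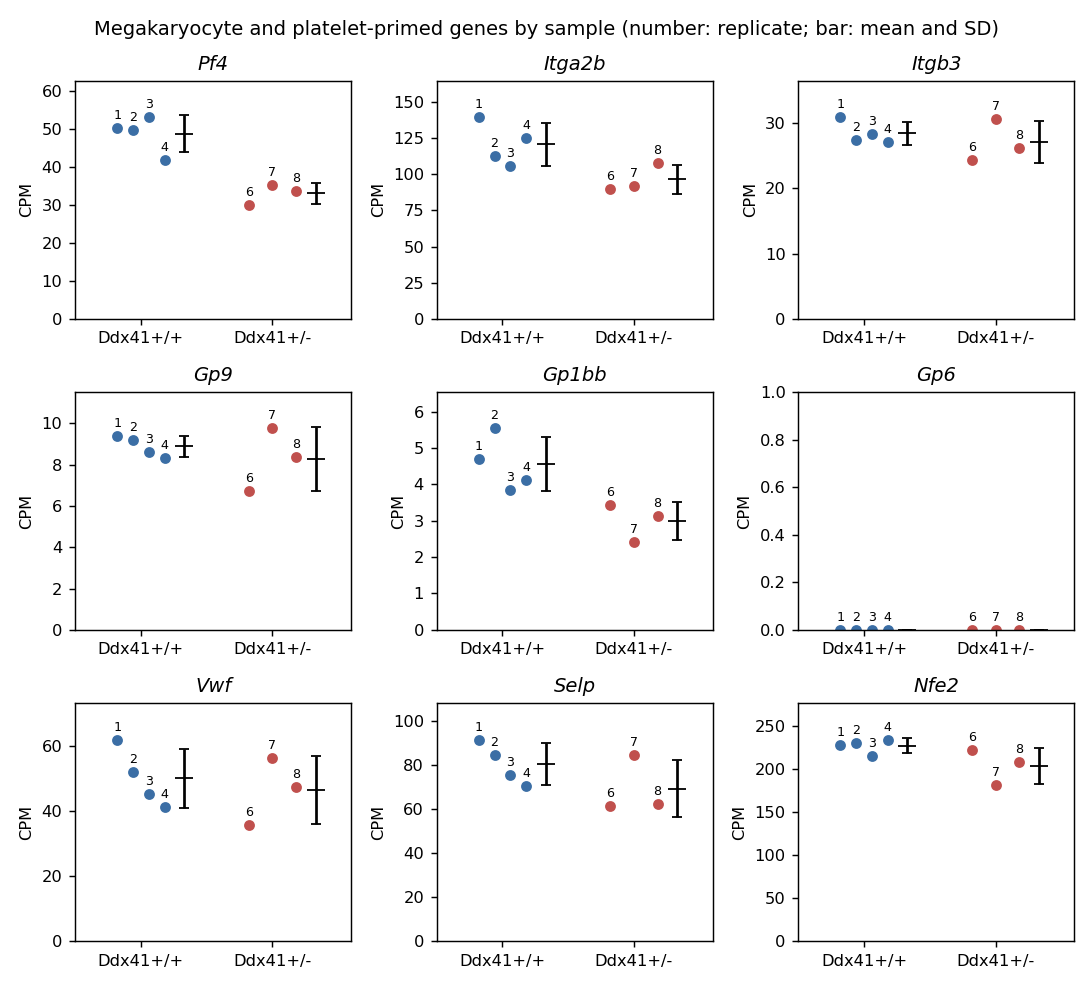
CPM (y axis, from 0) of each of the 9 genes in the 4 Ddx41+/+ (blue) and 3 Ddx41+/- (red) samples, with the replicate number at each point and the mean and SD beside them. Pf4 and Gp1bb show no overlap between genotypes, and Gp6 is at 0 in every sample. Ddx41+/- replicate 7 is the highest of its group for Pf4, Itgb3, Gp9, Vwf and Selp.

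Vwf and Selp encode 2 adhesive proteins that platelets store in alpha granules. Vwf, the gene of von Willebrand factor and a marker of platelet-biased stem cells, lies on chromosome 6 (125546774 to 125686679, plus strand). It was at 61.9, 52.0, 45.1 and 41.2 CPM in Ddx41+/+ and at 35.5, 56.3 and 47.2 CPM in Ddx41+/- samples. The Ddx41+/- samples lay on both sides of most Ddx41+/+ samples, with replicate 6 below all 4 and replicate 7 above 3 of them. The log2 fold change of Vwf was -0.11 (SE 0.17, 95% interval -0.50 to 0.28), and its sign changed without Ddx41+/+ replicate 1 (0.0064) or without Ddx41+/- replicate 6 (0.046), while it was -0.28 without replicate 7. Selp, the gene of P-selectin, which binds leukocytes and which endothelium also makes, lies on chromosome 1 (164115264 to 164150026, plus strand). It was at 91.6, 84.4, 75.4 and 70.6 CPM in Ddx41+/+ and at 61.3, 84.4 and 62.3 CPM in Ddx41+/- samples. Replicates 6 and 8 of Ddx41+/- were the lowest of all, while replicate 7 was above 2 of the 4 Ddx41+/+ samples. Selp had a log2 fold change of -0.22 (SE 0.12, 95% interval -0.48 to 0.04, edgeR adjusted p = 0.560). It was -0.38 without Ddx41+/- replicate 7, and -0.14 and -0.15 without replicates 6 and 8.

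Nfe2 encodes the p45 subunit of NF-E2, a factor that late megakaryocytes need to release platelets (chromosome 15, 103248212 to 103258403, minus strand). It was at 228.4, 230.8, 214.9 and 234.3 CPM in Ddx41+/+ and at 222.5, 181.1 and 208.3 CPM in Ddx41+/- samples. Replicate 6 lay within the Ddx41+/+ range and the other Ddx41+/- samples lay below it. The log2 fold change was -0.15 (SE 0.07, 95% interval -0.30 to -0.01), with an edgeR p of 0.0427 before and 0.445 after adjustment. It was -0.08 without Ddx41+/- replicate 7. The genes of its small Maf partners, Mafg and Mafk, had log2 fold changes of 0.10 (SE 0.12) and -0.04 (SE 0.08).

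Levels were compared between genes as CPM per kilobase of annotated exon in Ddx41+/+ samples. Nfe2 (76.0) and Pf4 (67.4) were the highest, followed by Itga2b (22.1), Selp (18.2), Gp9 (10.1), Itgb3 (4.82), Vwf (3.12) and Gp1bb (2.18), with Gp6 at 0. The ranges of neighbours in this order overlapped for Nfe2 with Pf4, Itga2b with Selp, and Vwf with Gp1bb, and not for the others. In Ddx41+/- samples only Itga2b and Selp overlapped, as Pf4 was then below Nfe2 on this scale. Within complexes, Gp9 was above Gp1bb and Itga2b above Itgb3 in CPM per kilobase. The exon length used for Gp1bb includes exons that overlap those of Sept5. Its level and its place in this order therefore carry the doubt about read assignment given above.

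The genes did not follow one pattern over the samples. Ddx41+/- replicate 6 was the lowest of the 7 samples for 6 of the 8 genes, all except Gp1bb and Nfe2. For those, Ddx41+/- replicate 7 was the lowest, although it was the highest of all samples for Gp9. Ddx41+/+ replicate 1 was the highest for 4 genes and above the gene mean for 8 of 8, and Ddx41+/- replicate 8 was above it for 0 of 8. Averaged over the 8 genes, log2 CPM relative to each gene's mean was 0.25, 0.17, 0.04 and 0.01 in the Ddx41+/+ and -0.26, -0.08 and -0.13 in the Ddx41+/- samples. The sum over the 9 genes was 534.9 to 616.8 CPM in Ddx41+/+ and 473.5 to 497.5 CPM in Ddx41+/- samples. Its largest part was Nfe2 (214.9 to 234.3 CPM in Ddx41+/+ and 181.1 to 222.5 CPM in Ddx41+/-), followed by Itga2b, so the sum mostly follows these genes.

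**Figure D3:**
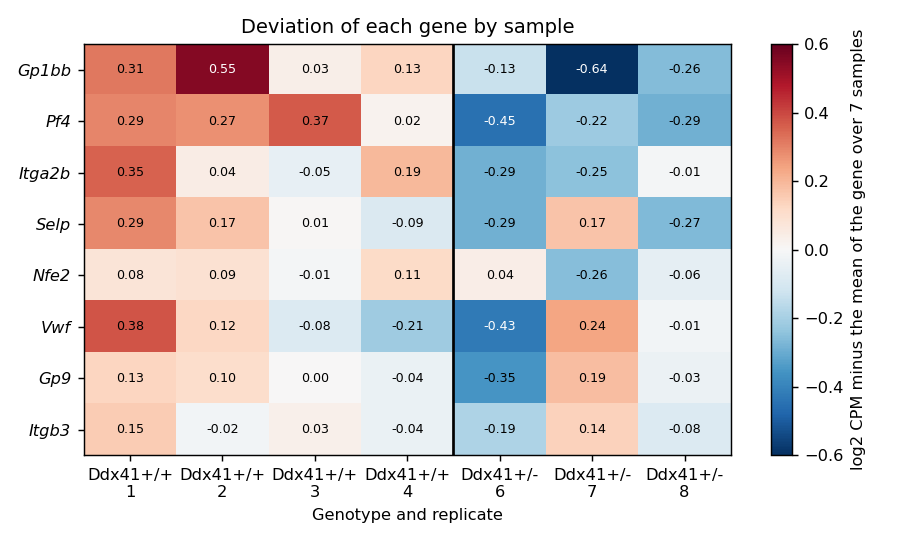
Log2 CPM of each gene in each sample minus the mean of the gene over the 7 samples, from -0.6 (blue) to 0.6 (red). Pf4, Itga2b and Gp1bb are negative in all Ddx41+/- samples, while Vwf, Selp, Gp9 and Itgb3 are negative in replicate 6 and positive in replicate 7.

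The 5 genes whose profile over the 7 samples lay nearest to this mean profile, by root mean square distance in log2 CPM among 11762 other genes of at least 1 CPM, were Meis1 (0.0509), Fam171a1 (0.0511), Angpt1 (0.0537), Zik1 (0.0540) and Cd9 (0.0545). Meis1 encodes a homeobox factor of stem cells and megakaryocytes, Angpt1 a ligand of the Tie2 receptor, and Cd9 a tetraspanin of the platelet membrane. These 3 are also in the lists of related genes.

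Leaving out single samples moved the genes in different ways. The number without overlap was 2 to 5. In these fits 13.4% to 23% of all genes tested did not overlap in either direction, and 6.71% to 11.9% in the lower direction. It was 4 without Ddx41+/+ replicate 3 (Pf4, Itga2b, Gp1bb and Nfe2), where 15.2% of all genes did not overlap, 7.85% in the lower direction. It was 5 without Ddx41+/- replicate 7 (Pf4, Itgb3, Gp9, Gp1bb and Selp), where the shares were 15.9% and 8.36%. All 8 fold changes stayed below 0 except Vwf without Ddx41+/+ replicate 1, and Vwf and Gp9 without Ddx41+/- replicate 6.

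**Figure D4:**
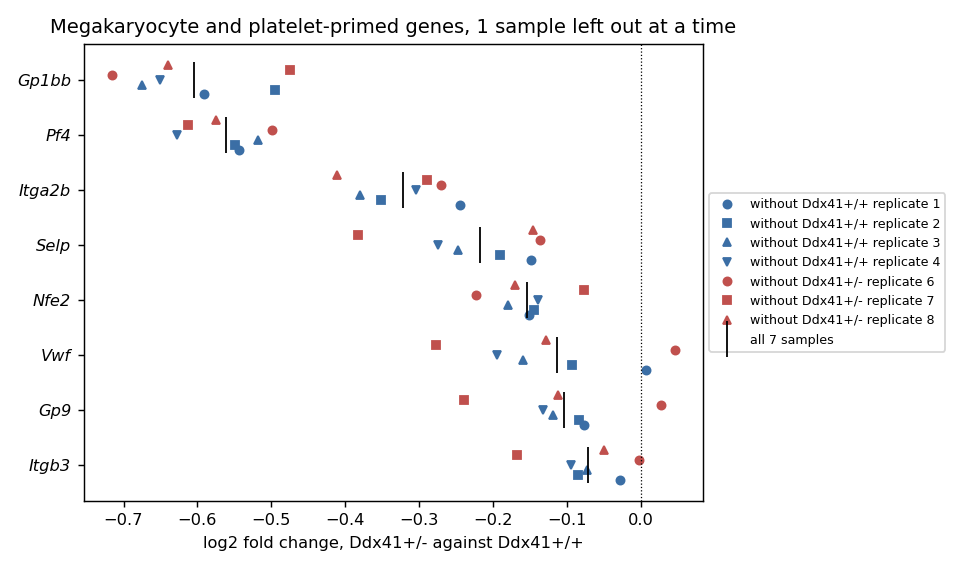
Fitted log2 fold changes (x axis) of the 8 genes tested with each sample left out in turn. Blue symbols leave out a Ddx41+/+ sample, red symbols a Ddx41+/- sample, and black bars are the fits of all 7 samples. Pf4, Itga2b and Gp1bb stay below -0.2, and Vwf and Gp9 reach 0 or above.

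Other genes of the platelet programme were read from 4 lists. Over all 13340 genes tested, 4.93% were lower at an unadjusted p under 0.05, and 5.21% did not overlap in the lower direction. Without overlap in that direction were 5 surface receptor, 0 granule, 3 cytoskeleton and signalling, and 6 lineage factor genes. Of 21 other surface receptor genes, 20 were tested, and 0 were called in either direction, with 7 lower and 0 higher at an unadjusted p under 0.05 and a median log2 fold change of -0.39. Gp5 and Gp1ba encode the other GPIb-IX-V subunits. Gp5, nearest to the threshold of this list, was at 15.5, 16.1, 16.4 and 14.6 CPM in Ddx41+/+ and at 8.30, 10.97 and 10.2 CPM in Ddx41+/- samples. The values did not overlap (log2 fold change -0.67, SE 0.13, edgeR adjusted p = 0.0545; exact permutation p = 0.0286, the smallest possible). Gp1ba, the ligand-binding subunit, was at 6.54 ± 0.934 CPM in Ddx41+/+ (SD, n = 4) and 4.95 ± 0.877 CPM in Ddx41+/- samples (SD, n = 3), with a log2 fold change of -0.40 (SE 0.20). Tbxa2r, the thromboxane receptor gene, was at -0.49 (SE 0.15) and Pear1, a platelet aggregation receptor gene, at -0.43 (SE 0.13) on the log2 fold change scale. Per kilobase, the highest receptor genes were Itgb1 (69.9 CPM per kilobase in Ddx41+/+) and Fcer1g (62.3), and their log2 fold changes were -0.06 and 0.10.

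Of 12 other granule genes, 0 were called, with 1 lower and 2 higher at an unadjusted p under 0.05 and a median of 0.05. Angpt1 was at -0.22 (SE 0.08). F13a1, the gene of the clotting factor XIII A subunit that monocytes also make, was at 0.42 (SE 0.15), and Sparc, a matrix protein gene, at 0.68 (SE 0.28). Srgn, the proteoglycan gene of granules in many blood cells, had 338.1 CPM per kilobase and a log2 fold change of 0.02. Of the 12, 4 had a log2 fold change below 0 and 8 above. Ppbp, the platelet chemokine gene, had 10 to 47 counts per sample, against 1183 to 2080 for Pf4.

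Of 15 cytoskeleton, signalling and eicosanoid genes, 14 were tested and 0 were called, with 4 lower and 0 higher at an unadjusted p under 0.05 and a median of -0.13. Gng11, a G-protein gamma subunit gene, was at -0.64 (SE 0.18), Lat, an adaptor gene of glycoprotein VI and T-cell receptor signalling, at -0.52 (SE 0.14), and Tbxas1, the thromboxane synthase gene, at -0.27 (SE 0.09). The genes with the highest level per kilobase, Tln1 and Fermt3, whose products activate integrins, had log2 fold changes of 0.07 and -0.11.

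Of 17 other lineage factor genes, 1 (Gata2) was called lower and 0 higher, with 8 lower and 0 higher at an unadjusted p under 0.05 and a median of -0.15. Gata2, a factor of stem cells and early megakaryocyte progenitors, was at 165.6, 121.2, 128.2 and 144.7 CPM in Ddx41+/+ and at 102.5, 101.4 and 94.4 CPM in Ddx41+/- samples. It fell to 71.0% of the Ddx41+/+ mean without overlap (log2 fold change -0.49, SE 0.09, edgeR adjusted p = 0.0471). The edgeR adjusted p was 0.0540 without Ddx41+/+ replicate 3, 0.1105 without Ddx41+/+ replicate 4, and 0.0832, 0.169 and 0.149 without Ddx41+/- replicates 6, 7 and 8, so the call was lost in these 5 fits and held without Ddx41+/+ replicate 1 or 2. Tal1 (-0.28, SE 0.07, edgeR adjusted p = 0.105) and Lmo2 (-0.24, SE 0.06, edgeR adjusted p = 0.126), which act with GATA factors in 1 complex, did not pass. Lyl1, among the highest of these per kilobase with Lmo2, was at -0.03. The factors Gata1, Fli1 and Runx1 had log2 fold changes of -0.15 (SE 0.12), 0.14 (SE 0.09) and 0.06 (SE 0.07).

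**Figure D5:**
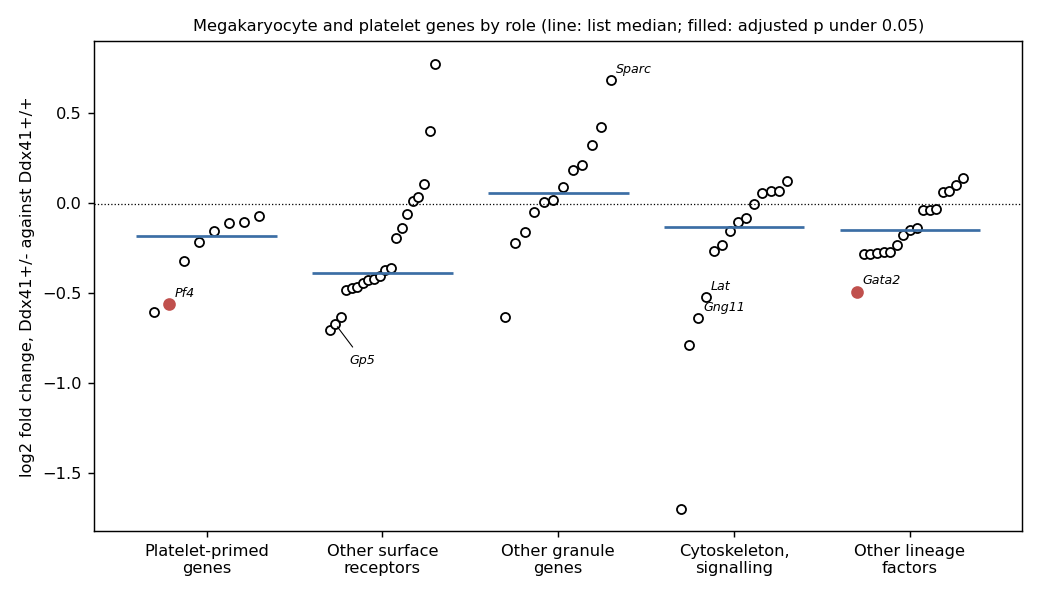
Fitted log2 fold changes (y axis) of the platelet-primed genes and of 4 lists of related genes, 1 point a gene, with blue lines at the list medians. Filled points are Pf4 and Gata2, the genes with an adjusted p under 0.05, and the granule list is the only one with a median above 0 (0.05).

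Markers of other cells were read beside these values. All 8 mature neutrophil markers had log2 fold changes above 0 (median 0.84) at an unadjusted p under 0.05, with 1 called higher in Ddx41+/- (Mmp9) and no marker at 0. Of the 8, 6 did not overlap. Over all 13340 genes tested, 761 were higher at that level and 647 did not overlap in the higher direction. The sum of the neutrophil markers was 728.3 to 1237 CPM in Ddx41+/+ samples, and 2262, 1571 and 1319 CPM in Ddx41+/- replicates 6, 7 and 8. Ddx41+/- replicate 6, lowest for 6 of the 8 platelet-primed genes, was the highest for this sum. The part of these markers in the values of the platelet-primed genes was not tested. Without replicate 6, the log2 fold changes were -0.72 for Gp1bb, -0.50 for Pf4 (edgeR adjusted p = 0.0803, no longer called), -0.27 for Itga2b, -0.22 for Nfe2, -0.14 for Selp, -0.0026 for Itgb3, 0.026 for Gp9 and 0.046 for Vwf. Of 8 long-term stem cell markers, which include Slamf1 and Procr of the LSK list, 7 had a log2 fold change below 0 (median -0.41). Of these, 4 were at an unadjusted p under 0.05, 3 did not overlap and 0 were called. The sum of the 8 stem cell markers was 163.0 to 221.8 CPM in Ddx41+/+ and 142.6 to 152.5 CPM in Ddx41+/- samples, and its part in the result was not tested either. All 7 macrophage markers had log2 fold changes above 0 (median 0.29), 0 at an unadjusted p under 0.05, and their sum, mostly Cd68 and Vcam1, was 82.6 to 109.1 CPM in Ddx41+/+ and 89.8 to 128.7 CPM in Ddx41+/- samples. All 7 B-lineage markers also had log2 fold changes above 0 (median 0.63), 3 of them at an unadjusted p under 0.05 and 0 called. Their sum was 37.5 to 53.7 CPM in Ddx41+/+ and 49.8 to 69.8 CPM in Ddx41+/- samples. The part of the macrophage and B-lineage markers in the result was not tested. Endothelial markers, read because endothelium also makes Vwf and Selp, summed to 47.9 to 56.9 CPM in Ddx41+/+ and 45.3 to 48.3 CPM in Ddx41+/- samples. Nearly all of this sum was Tie1 (40.5 to 52.1 CPM over the 7 samples), while Cdh5 was at 2 to 30 counts. The T and NK cell sum (222.8 to 273.8 CPM in Ddx41+/+, 252.7 to 282.9 CPM in Ddx41+/-) was nearly all Nkg7 (220.7 to 281.0 CPM over the 7 samples), with Cd3d, Cd3e and Cd3g at 0 to 13 counts. Sums of erythroid (114.4 to 223.4 against 147.1 to 184.4 CPM) and mast cell and basophil markers (162.9 to 211.2 against 169.8 to 202.1 CPM) overlapped between Ddx41+/+ and Ddx41+/- samples, with no more than 1 marker of either list at an unadjusted p under 0.05 (Cpa3, lower). Most of the erythroid sum was Car1 (79.6 to 165.2 CPM over the 7 samples). The 4 globin genes of the erythroid list, at 0 counts in all samples, added nothing to it.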

How the data were processed

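RNA-seq of LSK cells was analysed in 4 Ddx41+/+ and 3 Ddx41+/- samples, grouped by the genotype in the labels. The values that the authors deposited are raw counts for each gene symbol, with no normalization. Per the submitters' processing notes the tools were FastQC 0.11.7, HISAT2 2.0.5 and featureCounts 1.5.2 with mm10. The annotation and the handling of strand and of reads shared between genes are not given in the sources used here, and the labels and methods name different library kits, 1 of them stranded. This leaves Gp1bb uncertain, which shares exons with Sept5 and with Gm49601, a protein-coding gene on the same strand that has no row in these counts. Selp overlaps Gm16548, a long noncoding RNA gene on the opposite strand at 0.122 CPM, and Gm16587, an antisense gene with no row in these counts.

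All 7 sample columns were used (0 unused). No pair of the 7 samples agreed within sampling noise (chi-square per gene at least 13.7 in 21 pairs). Genes were tested with edgeR 4.0.16 in R 4.3.3 (filterByExpr, TMM scaling, robust quasi-likelihood fit) and adjusted by Benjamini-Hochberg over all 13340 genes tested, with a threshold of 0.05. The script was tested on simulated data. The biological coefficient of variation was 12.9%. Each SE was obtained by dividing the size of the log2 fold change by the root of its F statistic. CPM used TMM-scaled library sizes, and log2 CPM a prior count of 2. Values of 1 gene were compared by exact permutation (two-sided). Positions and exon lengths came from GENCODE M21 (GRCm38), matched for 138 of 138 listed genes. Precision rests on depth (81 counts or more in every sample for the 8 genes tested) and on the spread between mice.

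Alternatives were other scalings, no filter, DESeq2 1.42.0, limma 3.58.1 (voom, with and without sample weights), a non-robust fit and leaving out each sample. The 9 genes, Ddx41, the 5 nearest profiles, and in each related list the called genes, the 3 with the smallest p and the 2 of the highest level per kilobase were named by rule. Other list members (Gp1ba, Ppbp, Mafg, Mafk, Gata1, Fli1, Runx1 and the cell markers) and Sept5 were named after their values were seen. The genes and lists were chosen with earlier results of these data known.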

Additional observations from a re-analysis of the deposited data

How the results depend on the processing

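No paired analysis was possible because the genotypes share no replicate number. The number of genes called, 29, was 15 with library totals only, 91 with no filter, 156 with DESeq2, 10 with limma-voom and 14 with a non-robust fit, and 7 to 41 with a sample left out. Of the platelet-primed genes, 1 was called, 0 with limma-voom (Pf4 at an adjusted p of 0.0563) and 0 to 1 with a sample left out. Over all 15 alternatives the log2 fold change of Pf4 was -0.63 to -0.50, and it passed in 10. Of the related lists, 1 gene was called, with 0 by RLE scaling, library totals only, limma-voom and a non-robust fit, 2 by upper-quartile scaling and with no filter (Gp5 and Gata2), 6 by DESeq2 (Gp5, Gng11, Lat, Gata2, Tal1 and Lmo2), and 0 to 1 with a sample left out. With sample weights the 1 gene was Gp5, not Gata2. Platelet-primed genes without overlap numbered 2 to 5 with a sample left out. In these fits 13.4% to 23% of all genes tested did not overlap in either direction, and 6.71% to 11.9% in the lower direction. Signs turned for the log2 fold changes of Gp9 (-0.24 to 0.026 with a sample left out, the highest without Ddx41+/- replicate 6), Vwf (-0.28 to 0.046, with 0.0064 without Ddx41+/+ replicate 1 and 0.046 without Ddx41+/- replicate 6) and, added after seeing the data, Gp1bb summed with Sept5 (0.19). For all but the last, which changes which reads are counted, the cause was not tested. Ddx41 stayed past the threshold in all 15. Gp1bb, with 81 to 214 counts, and Gp9 had the fewest counts of the genes tested, and no other scaling changed a sign.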
